A study of Mus musculus with 3 samples.

Results

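The genes described here are 35 members of the glycolysis and hypoxia response programs, chosen by symbol among the 32285 genes of the count tables. Of these, 17 belong to glycolysis and the handling of pyruvate and lactate, and 18 are components or known targets of the oxygen-sensing pathway. Their RNA was measured in sections of healing mouse skin on Days 3, 7 and 14 after wounding, in spots with little muscle RNA, and by place relative to the wound bed.

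Glycolysis splits glucose into pyruvate, which either enters mitochondria or is reduced to lactate, and it yields ATP without oxygen. When oxygen is low, prolyl hydroxylases no longer mark the transcription factor subunit HIF-1α for destruction, and HIF raises the transcription of glucose transporters, most glycolytic enzymes, lactate export, vessel growth factors and several regulators of mitochondria. A fresh wound has cut vessels and fills with neutrophils and macrophages, cells that rely heavily on glycolysis, so this program is a textbook feature of early healing tissue. Several of the same enzymes are also abundant in skeletal muscle, where they serve contraction.

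The wounds were full-thickness punch wounds in the back skin of C57BL/6J mice, males aged 7 to 12 weeks. Wound tissue was harvested on Day 3, Day 7 or Day 14, frozen, embedded and cut into sections for Visium, an array of barcoded spots that each capture the polyadenylated RNA of a small region holding a mixture of cells. All mice were wounded and no unwounded skin or other control was analysed here. Each day was 1 section, so days differ in animal and section together, and these cannot be told apart. No test between days or places was possible. The sample titles give the day only and do not say whether the sections shared a slide.

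Expression was counted as unique molecular identifiers (UMIs, 1 per captured RNA molecule) and is given as CPM (counts per 1000000 UMIs) pooled over a set of spots. Intervals are 95% intervals for the count or the ratio, and they cover counting error only. Spots are regions of a single section, not replicates, and a pooled value cannot tell fewer cells of a type from less RNA per cell. A member is called higher or lower where its CPM ratio was at least 1.5-fold in either direction and the pair of spot sets held at least 100 UMIs of it. The share of all genes called in the same way is given beside the first count of members in each comparison of the text.

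The sections held 664, 549 and 697 spots marked as under tissue on Days 3, 7 and 14, with 1772259, 4442962 and 4611723 UMIs. Median depth was 1513, 6687 and 4827 UMIs per marked spot, and between 49.01% and 59.24% of each array's UMIs lay outside the marked spots. Spots were kept apart as muscle where Acta1 plus Ckm, actin and creatine kinase of skeletal muscle, reached 1% of UMIs. This left 239, 58 and 16 spots with 1134934, 1021028 and 173468 UMIs. Because so few remained on the later days, values from all marked spots under 3% are given beside them (454, 412 and 488 spots); that limit was chosen after the data were seen. A list of 10 muscle genes still summed to 15980, 21330 and 20270 CPM under 1%, and to 21800, 44280 and 44540 CPM under 3%. All 10 genes of an epidermal list were detected in the spots under 1%, at unequal sums of 12980, 1974 and 39100 CPM. The 4992 spot barcodes were the same on all 3 arrays, since they encode array positions and not cells.

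Wound-bed spots were the 20% of these spots with the largest share of UMIs in 10 wound matrix and repair genes (Postn, Tnc, Fn1, Timp1, Spp1, Arg1, Tnn, Cthrc1, Col12a1 and Mmp13), summed over a spot and its adjacent spots. None of the 35 members is among those genes. There were 48, 12 and 3 wound-bed spots on Days 3, 7 and 14 under 1% muscle and 91, 82 and 98 under 3%.

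On Day 3, both programs stood higher in the wound bed than in the rest of the section. The 16 glycolysis members other than Aldoa summed to 9991 CPM in the 48 wound-bed spots and 4599 CPM in the 191 other spots, a log2 ratio of 1.12 (1.04 to 1.20). With Aldoa, which was not higher in the bed, all 17 summed to 11930 CPM against 6646 CPM, a smaller log2 ratio of 0.84 (0.78 to 0.91). The 18 hypoxia response members summed to 2103 CPM against 1037 CPM, a log2 ratio of 1.02 (0.86 to 1.18). Of all 35 members, 29 had a ratio above 1 and 6 a ratio below 1, that is 82.86% above 1 where 42.76% of all detected genes were above 1. With the 100 UMI minimum, 15 members could be called, 12 were higher and 0 were lower, beside 20.6% of all genes called higher and 23.1% called lower. The median log2 ratio was 1.23 over those 15 members and 0.07 over all genes with enough UMIs, although members scarce outside the wound bed reach the minimum partly through their wound-bed level.

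**Figure D1:**
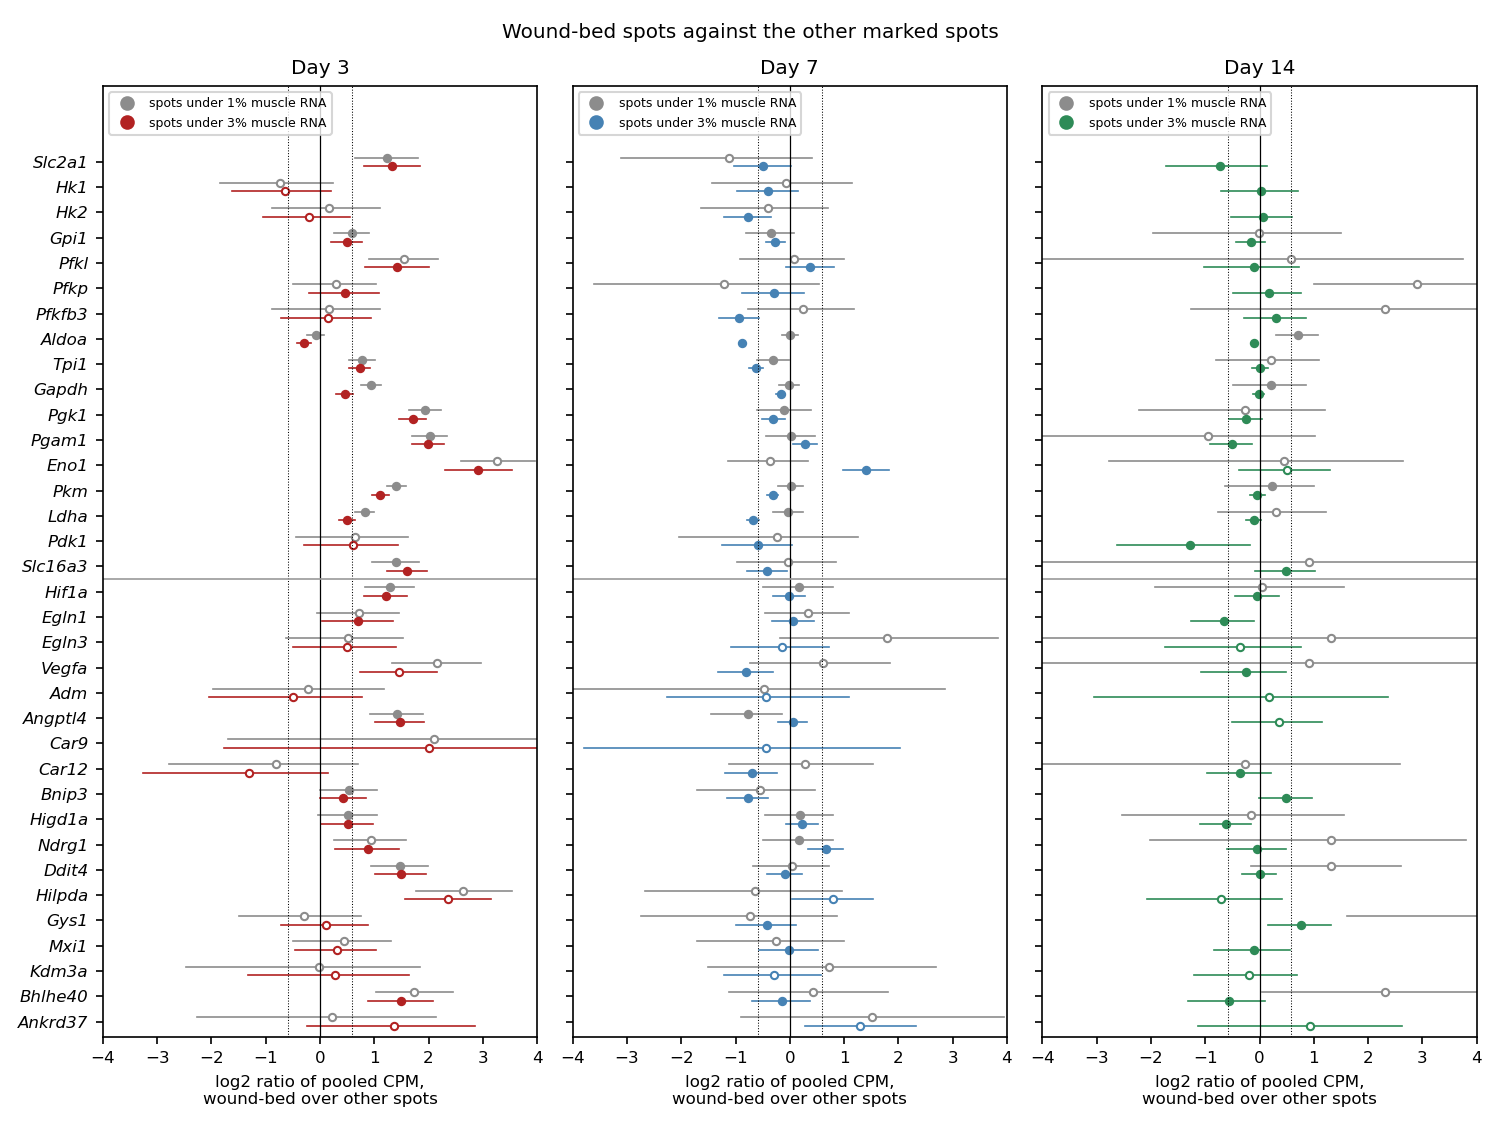
Log2 ratio of pooled CPM in wound-bed spots over the other spots for each of the 35 members, a panel per day, with 95% counting intervals (grey, spots under 1% muscle RNA; colour, under 3%; open symbols, under 100 UMIs; dotted lines, 1.5-fold; intervals end at the panel edge where they are wider). On Day 3 most members sit to the right of 0, with Pgk1 at 1.94 and Pgam1 at 2.02 under 1%, while on Days 7 and 14 they lie on both sides of it.

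Among members with at least 100 UMIs, the highest ratios were those of Pgam1 and Pgk1, which act on consecutive steps between triose phosphate and pyruvate. Phosphoglycerate kinase Pgk1, which makes the first ATP of the pathway, was at 898 CPM in the Day 3 wound bed and 235 CPM in the other spots, a log2 ratio of 1.94 (1.65 to 2.22). Pgam1, the phosphoglycerate mutase of the next step, was at 731 CPM against 180 CPM, a log2 ratio of 2.02 (1.69 to 2.34). Their levels were 3.83-fold and 4.05-fold higher in the wound bed. Pyruvate kinase Pkm was at 2075 CPM against 784 CPM (log2 ratio 1.40, 1.23 to 1.58), Gapdh at 1629 CPM against 848 CPM (0.94, 0.76 to 1.13) and triose phosphate isomerase Tpi1 at 931 CPM against 544 CPM (0.78, 0.53 to 1.02). Aldoa, the aldolase that is also the main muscle form, was the exception among these steps, at 1936 CPM against 2048 CPM (-0.08, -0.24 to 0.07). Enolase Eno1 was at 293 CPM against 30.4 CPM, a log2 ratio of 3.27 (2.60 to 3.97) on 91 UMIs. That value is uncertain because Eno1 shares reads with the near-identical copy Eno1b, which was itself at 354 CPM against 88.0 CPM, and the counting could split or drop such reads.

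At the head of the pathway, the glucose transporter Slc2a1 was at 186 CPM in the wound bed and 79.3 CPM elsewhere (log2 ratio 1.23, 0.64 to 1.81), and the phosphoglucose isomerase Gpi1 at 512 CPM against 339 CPM (0.59, 0.27 to 0.91). The hexokinases had few UMIs and intervals that held 0, with log2 ratios of -0.73 for Hk1 and 0.16 for Hk2. Among the phosphofructokinase genes, the liver-type subunit Pfkl was at 172 CPM against 58.7 CPM (1.55, 0.91 to 2.18, 91 UMIs), while the platelet-type subunit Pfkp (0.29, -0.50 to 1.02) and the regulator Pfkfb3 (0.16, -0.89 to 1.099) were not distinguishable from equal levels at this depth. Downstream of pyruvate, lactate dehydrogenase Ldha was at 1908 CPM against 1079 CPM (0.82, 0.65 to 0.99). The lactate exporter Slc16a3 was at 349 CPM against 133 CPM (1.40, 0.96 to 1.82). Pdk1, the kinase that holds pyruvate out of mitochondria, had 45 UMIs and a log2 ratio of 0.64 (-0.45 to 1.63).

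Of the oxygen-sensing genes, Hif1a was at 307 CPM in the Day 3 wound bed and 126 CPM elsewhere (log2 ratio 1.28, 0.83 to 1.73). The prolyl hydroxylases Egln1 (0.72, -0.06 to 1.46) and Egln3 (0.51, -0.62 to 1.53) had intervals that included 0. Among the secreted products, Angptl4, an inhibitor of lipoprotein lipase, was at 270 CPM against 101 CPM (1.42, 0.92 to 1.91). The vessel growth factor Vegfa was at 130 CPM against 29.3 CPM (2.15, 1.33 to 2.97) on 55 UMIs, and the vasodilator peptide Adm at 23.3 CPM against 27.2 CPM on 30 UMIs. The lipid droplet protein Hilpda was at 135 CPM against 21.7 CPM (2.63, 1.76 to 3.53) on 49 UMIs. Ddit4, a stress-induced inhibitor of mTORC1, was at 247 CPM against 89.1 CPM (1.47, 0.94 to 1.98). Bhlhe40, a transcriptional repressor of the circadian system, was at 149 CPM against 44.6 CPM (1.74, 1.03 to 2.44) on 73 UMIs.

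Apart from Car9, the remaining hypoxia response members had log2 ratios below 1. Ndrg1, a stress-responsive gene, was at 140 CPM against 72.8 CPM (0.94, 0.27 to 1.58) on 97 UMIs. Bnip3, which directs mitochondria to autophagy, was at 196 CPM against 135 CPM (0.54, 0.00 to 1.05), and the mitochondrial protein Higd1a at 186 CPM against 129 CPM (0.53, -0.03 to 1.05). The glycogen synthase Gys1 (-0.29), the MYC antagonist Mxi1 (0.45), the histone demethylase Kdm3a (-0.02), Ankrd37 (0.22) and the carbonic anhydrases Car12 (-0.81) and Car9 all had intervals that spanned 0, and Car9 had 4 UMIs in the whole set.

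The wound-bed difference on Day 3 was also present in the larger set under 3% muscle. There the 16 glycolysis members without Aldoa summed to 9198 CPM against 5072 CPM (log2 ratio 0.86, 0.79 to 0.92) and the hypoxia response members to 1978 CPM against 1041 CPM (0.93, 0.78 to 1.07). All 17 glycolysis members with Aldoa summed to 11290 CPM against 7636 CPM (0.56, 0.51 to 0.62). Of 21 members with enough UMIs, 14 were higher and 0 lower, beside 19.1% and 22.6% of all genes. A ratio above 1 was seen in 30 of the 35 (85.71%), where 44.44% of all detected genes were above 1. Eno1, Pfkl, Ndrg1, Bhlhe40 and Egln1 reached the minimum and the fold in this set. Gpi1 (log2 ratio 0.49), Gapdh (0.45) and Ldha (0.49) stayed under the fold. When spots between 1% and 3% alone were used, 7 members had enough UMIs, and 2 were higher and 0 lower, beside 14.2% and 23% of all genes.

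The Day 3 wound bed was not a single patch. Under 1% muscle its 48 spots formed 12 groups, and the largest, of 23 adjacent spots, held 1942 of the 2147 UMIs of the 16 glycolysis members. Under 3% the largest group had 61 of the 91 spots, with 9255 CPM of those members and 1972 CPM of the hypoxia response members. A separate group of 17 shallow spots (median 427 UMIs) gave 8203 CPM (log2 ratio 0.69 to the other spots, 0.42 to 0.95) and 2508 CPM (1.27, 0.76 to 1.74). A group of 10 spots gave 9792 CPM of the glycolysis members (0.95, 0.59 to 1.29) but 828 CPM of the hypoxia response members (-0.33, -1.78 to 0.79) on 6 UMIs.

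HIF binds a short core motif upstream of many of its targets. Promoters are therefore shown for 4 of the 12 members called higher in the Day 3 wound bed. That of Vegfa, which was high there on few UMIs, is shown as well. The core was searched as ACGTG and as GCGTG on either strand in the 250 bases before each RefSeq transcription start (GRCm38.p6). The 150 bases next to the start follow, 5′ to 3′ on the gene's strand, with matches on either strand in capitals. None of these 5 windows overlaps an annotated exon.
Pgk1 (chrX:106186950-106187099, plus strand): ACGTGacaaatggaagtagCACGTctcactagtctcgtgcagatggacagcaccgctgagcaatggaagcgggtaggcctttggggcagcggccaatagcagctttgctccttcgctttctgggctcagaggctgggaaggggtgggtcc
Pgam1 (chr19:41911721-41911870, plus strand): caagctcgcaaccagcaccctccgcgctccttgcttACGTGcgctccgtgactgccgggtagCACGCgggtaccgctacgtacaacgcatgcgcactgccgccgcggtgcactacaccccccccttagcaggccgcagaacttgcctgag
Ldha (chr7:46845654-46845803, plus strand): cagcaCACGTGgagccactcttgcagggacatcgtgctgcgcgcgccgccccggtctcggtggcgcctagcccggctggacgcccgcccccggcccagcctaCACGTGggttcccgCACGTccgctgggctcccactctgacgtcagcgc
Hif1a (chr12:73907717-73907866, plus strand): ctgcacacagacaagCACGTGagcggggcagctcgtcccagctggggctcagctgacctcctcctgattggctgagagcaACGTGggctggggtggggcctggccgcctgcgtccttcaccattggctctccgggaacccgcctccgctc
Vegfa (chr17:46032378-46032527, minus strand): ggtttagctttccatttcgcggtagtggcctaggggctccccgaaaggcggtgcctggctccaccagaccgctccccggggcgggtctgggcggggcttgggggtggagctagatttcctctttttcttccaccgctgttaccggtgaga

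Pgk1 held 2 matches in the bases shown, Pgam1 held 2, Ldha held 5, Hif1a held 3 and Vegfa held 0. Pkm, Tpi1 and Gpi1, not shown but also called higher in that bed, held 0 in the 150 bases of their first listed start. A second listed start of Pkm held 1 in its 250 bases. RefSeq lists another start for both Ldha and Vegfa, not shown, with 1 and 2 matches in its 250 bases. In Ldha and Hif1a the run CACGTG reads the same on both strands and counts on each, so 2 of the Ldha matches overlap others, as does 1 of those in Hif1a. RefSeq entries were matched for 32 of the 35 members, all but Angptl4, Ndrg1 and Bhlhe40. Either form was present within 250 bases at 34 of the members' 47 listed starts (72.3%), and at 38.6% of the 32851 starts of all genes. ACGTG was present at 46.8% of the members' starts and 16.6% of all starts, and GCGTG at 44.7% and 28.2%. The members' windows were richer in G and C, with a median of 62.8% against 52.4%. A match describes these letters and is not evidence of binding.

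Distance to the wound bed gave a graded order on Day 3. The glycolysis members without Aldoa summed to 9991 CPM in the bed, 7277 CPM within 2 spot spacings of it, 5511 CPM within 5 and 3709 CPM beyond. Their intervals did not overlap between these classes. The hypoxia response members were at 2103, 1320, 1134 and 943 CPM, and the intervals of the middle classes overlapped, as did those of the farthest pair. Pgk1 was at 898, 384, 272 and 187 CPM, and Pgam1 at 731, 395, 193 and 118 CPM. Hif1a was at 307, 206, 181 and 95.8 CPM in the same order. All 3 were highest in the bed and lowest beyond 5 spacings. Slc2a1 kept nearly its wound-bed level next to the bed, with 186, 179, 125 and 44.8 CPM. Ldha was at 1908, 1596, 1440 and 882 CPM. Aldoa showed no such order, with 1936, 2159, 2177 and 1998 CPM.

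**Figure D2:**
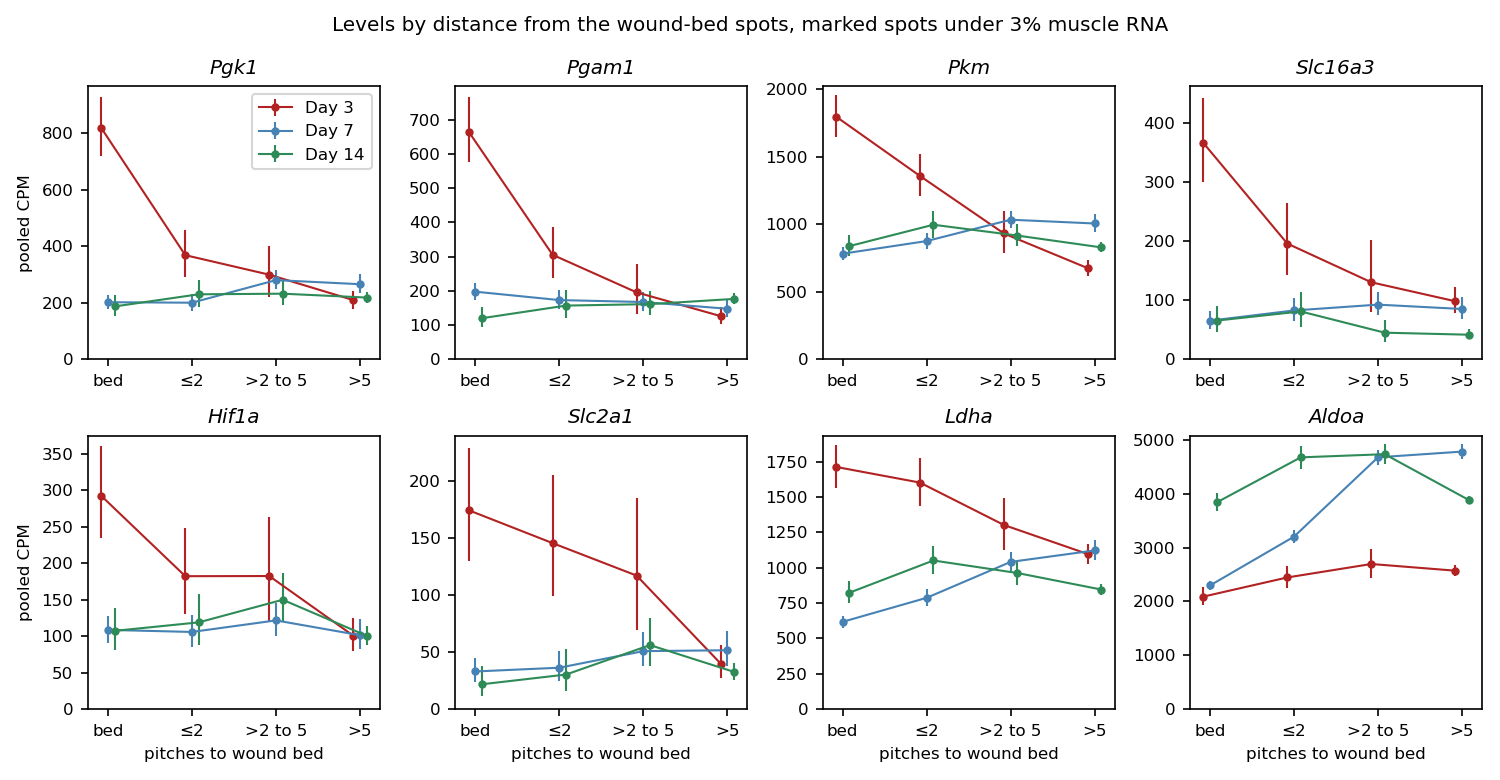
Pooled CPM with 95% counting intervals for 8 genes in wound-bed spots and at growing distance from them, in spots under 3% muscle RNA, for Days 3, 7 and 14. On Day 3 Pgk1 goes from 819 CPM in the bed to 210 CPM beyond 5 spot spacings and Pgam1 from 665 to 126 CPM.

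Markers of other cell types differed along the same distances. Neutrophil genes (10 genes, of which Ly6g was at 0 in the bed) summed to 4756 CPM in the Day 3 wound bed and 1740 CPM in the other spots, macrophage genes to 6748 against 4297 CPM, and red blood cell genes to 7562 against 3276 CPM. Epidermal genes were lower in the bed (5612 against 14700 CPM), as were fat genes (2010 against 6681 CPM) and resting fibroblast genes (2639 against 6318 CPM). Genes of wound epidermis, the keratinocytes that migrate over a wound, were highest beside the bed, with 2676 CPM in it and 6168 CPM within 2 spacings. The muscle list was lower in the bed (11520 against 17020 CPM). The part of the fat, fibroblast and muscle RNA in the members' differences was not tested. For epidermal RNA, the spots richest in epidermal, wound epidermis, hair follicle or sebaceous genes were left out of the other spots. Fewer members were then higher in the Day 3 bed under 3%, as given with the processing alternatives below. Fewer genes reached the UMI minimum as well, 1447 instead of 2681, and under 1% the count stayed within 1.5 times. The part of epidermal RNA in the members' differences was therefore not tested. With the spots richest in neutrophil, macrophage or red blood cell genes left out of both sets, a choice made after the data were seen, 13 of 14 members with enough UMIs were higher in the Day 3 bed under 1% and 0 lower, beside 22.9% and 25.8% of all genes. Pgk1 was higher there by 1.97 and Pgam1 by 1.96 on the log2 scale. Only the top 10% of spots by each list were left out, so the remaining spots can still hold these cells. The part of neutrophil, macrophage and red blood cell RNA in the members' differences was not tested. Wound-bed spots were also shallower, with a median of 1950 UMIs against 4170, and 12 of the 48 held under 500.

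In spots rich in the markers of a given cell type, the members did not all follow the wound bed. The 24 Day 3 spots richest in wound epidermis genes had 420 CPM of Slc2a1 (300 to 572), and the 24 richest in neutrophil genes had 591 CPM (338 to 960), against 99.6 CPM over all 239 spots. Egln3 was at 231 CPM and 296 CPM in those sets and at 38.8 CPM over all spots. Ldha was at 2686 and 2328 CPM there, against 1236 CPM over all spots. Both sets were shallow, with 95304 and 27061 UMIs, and a spot can belong to several sets and to the wound bed. Ndrg1 (294 and 259 CPM, against 85.5 CPM overall) was higher in both sets as well. Ddit4 was at 336 CPM in the wound epidermis set and 148 CPM (40.3 to 379) in the neutrophil set. Angptl4 differed from these, with 259 CPM in spots rich in red blood cell genes, 238 CPM in macrophage-rich spots and 73.5 CPM in the wound epidermis set. Bnip3 was at 395 CPM (258 to 579) in fat-rich spots, where Slc2a1 had 15.2 CPM and Egln3 had 0 UMIs of 65785, which allows up to 45.6 CPM.

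**Figure D3:**
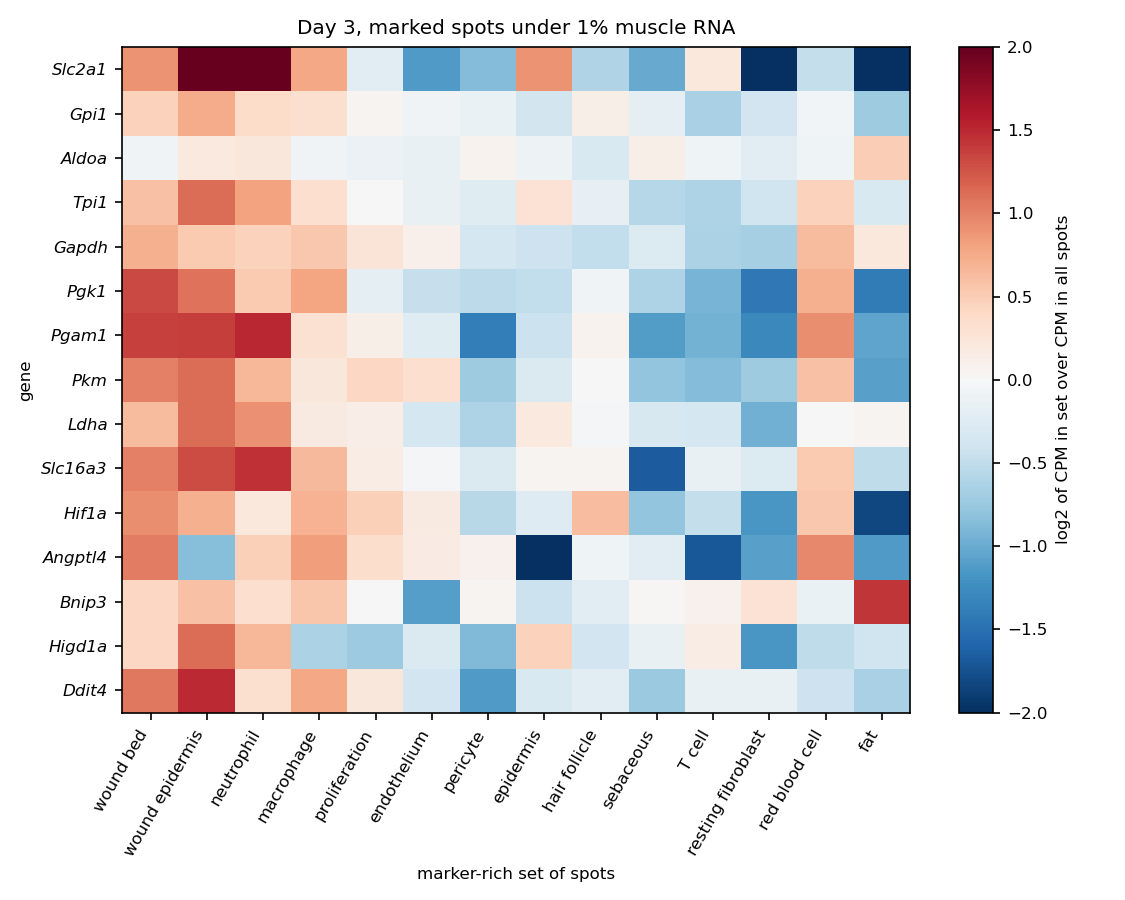
Level of the 15 members with at least 100 UMIs in the Day 3 spots richest in each marker list, as the log2 ratio of their CPM to that over all 239 spots under 1% muscle RNA (colour; columns, the wound bed and then the marker lists; rows, members). Slc2a1 is highest in the neutrophil-rich (591 CPM) and wound-epidermis-rich (420 CPM) spots, and Angptl4 in the wound bed (270 CPM), with 259 CPM in red-blood-cell-rich and 238 CPM in macrophage-rich spots.

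On Day 7, under 1% muscle, both programs were at similar levels in the wound-bed spots and the other spots. In spots under 1% muscle the 16 glycolysis members summed to 4046 CPM in the 12 wound-bed spots and 4303 CPM in the other 46 (log2 ratio -0.09, -0.19 to 0.01), and the hypoxia response members to 866 and 862 CPM (0.01, -0.22 to 0.23). Of 12 members with enough UMIs, 0 were higher and 1 was lower, beside 2.13% and 6.95% of all genes. The lower member was Angptl4, at 94.9 CPM in the bed and 162 CPM outside (-0.77, -1.46 to -0.15). Pgk1 (-0.10), Pgam1 (0.03), Pkm (0.01), Ldha (-0.02) and Hif1a (0.16) were all within the fold, with intervals that held 0. The wound-bed list itself summed to 16380 CPM in these 12 spots and 11920 CPM in the other 46, a narrower gap than the 6715 and 1809 CPM of Day 3. Of the other 46, 33 lay within 2 spacings of the bed. Under 3% muscle the wound-bed spots of Day 7 began at 9748 CPM of that list, so the other spots here were themselves rich in wound-bed genes.

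In the wider Day 7 set, under 3% muscle, the glycolysis members without Aldoa were at 4364 CPM in 82 wound-bed spots and 5540 CPM in the others (-0.34, -0.39 to -0.30), and the hypoxia response members at 926 and 962 CPM (-0.05, -0.15 to 0.04). Of 29 members with enough UMIs, 2 were higher and 8 lower, beside 7.21% and 14.3% of all genes. A ratio above 1 was seen in 9 of the 35 (25.71%), where 43.24% of all detected genes were above 1. Eno1 was higher, at 81.0 CPM against 30.7 CPM (1.40, 0.97 to 1.83), and so was Ndrg1, at 107 CPM against 67.5 CPM (0.66, 0.34 to 0.99). The 8 lower members were Pfkfb3 (61.3 against 117 CPM, -0.93), Aldoa (2296 against 4234 CPM, -0.88), Vegfa (33.8 against 58.9 CPM, -0.80), Bnip3 (-0.78), Hk2 (-0.77), Car12 (-0.70), Ldha (617 against 986 CPM, -0.68) and Tpi1 (-0.62). The muscle list was at 25060 CPM in this bed and 53010 CPM in the other spots, and its part in these values was not tested. In spots between 1% and 3% alone, 2 of 27 members were higher and 0 lower, beside 6.88% and 12.3% of all genes.

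On Day 14 the 1% set held 3 wound-bed spots, and 3 members had enough UMIs. Of these, Aldoa was higher (3419 against 2098 CPM, log2 ratio 0.70, 0.31 to 1.08), 1 member in all, and 0 were lower, beside 10.6% and 40.3% of all genes. Under 3%, the wound-bed list summed to 3861 CPM in the 98 wound-bed spots and 1422 CPM in the 390 others. Both were below the 6575 CPM of the other Day 7 spots under 3%, so these 98 spots are the top of a low range. They and the 390 others were close, at 5057 and 5260 CPM of the glycolysis members without Aldoa (-0.06, -0.12 to 0.00). The hypoxia response members were at 872 and 949 CPM (-0.12, -0.26 to 0.02). Of 27 members, 1 was higher and 4 lower, beside 8.14% and 15.4% of all genes. Gys1 was higher, at 59.96 CPM against 35.5 CPM (0.76, 0.16 to 1.32). Pdk1 (12.7 against 30.8 CPM, -1.28), Slc2a1 (21.8 against 36.1 CPM, -0.73), Egln1 (-0.65) and Higd1a (-0.62) were lower. Epidermal genes were at 6997 CPM in this bed and 15240 CPM outside it. With epidermal spots left out of the others, fewer members were past the fold, as given with the processing alternatives below. Fewer genes reached the UMI minimum as well, 4418 instead of 6896.

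Pooled over all marked spots under 1% muscle, most members were at lower levels on Day 7 than on Day 3. These spots are a part of each section and unlike in tissue between days. Their wound-bed list summed to 2738, 13070 and 1118 CPM on Days 3, 7 and 14, and the part of this in the members' levels was not tested. In spots under 1% muscle the glycolysis members without Aldoa summed to 5620, 4237 and 3730 CPM on Days 3, 7 and 14, and the hypoxia response members to 1239, 863 and 957 CPM. Between Day 3 and Day 7 the ratio was below 1 for 30 of the 35 members, that is 85.71% where 54.26% of all detected genes were below 1. With enough UMIs, 9 of 23 members were lower on Day 7 and 0 higher, beside 24.7% of all genes lower and 16.6% higher. The median log2 ratio was -0.39 over those members and -0.07 over all genes.

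**Figure D4:**
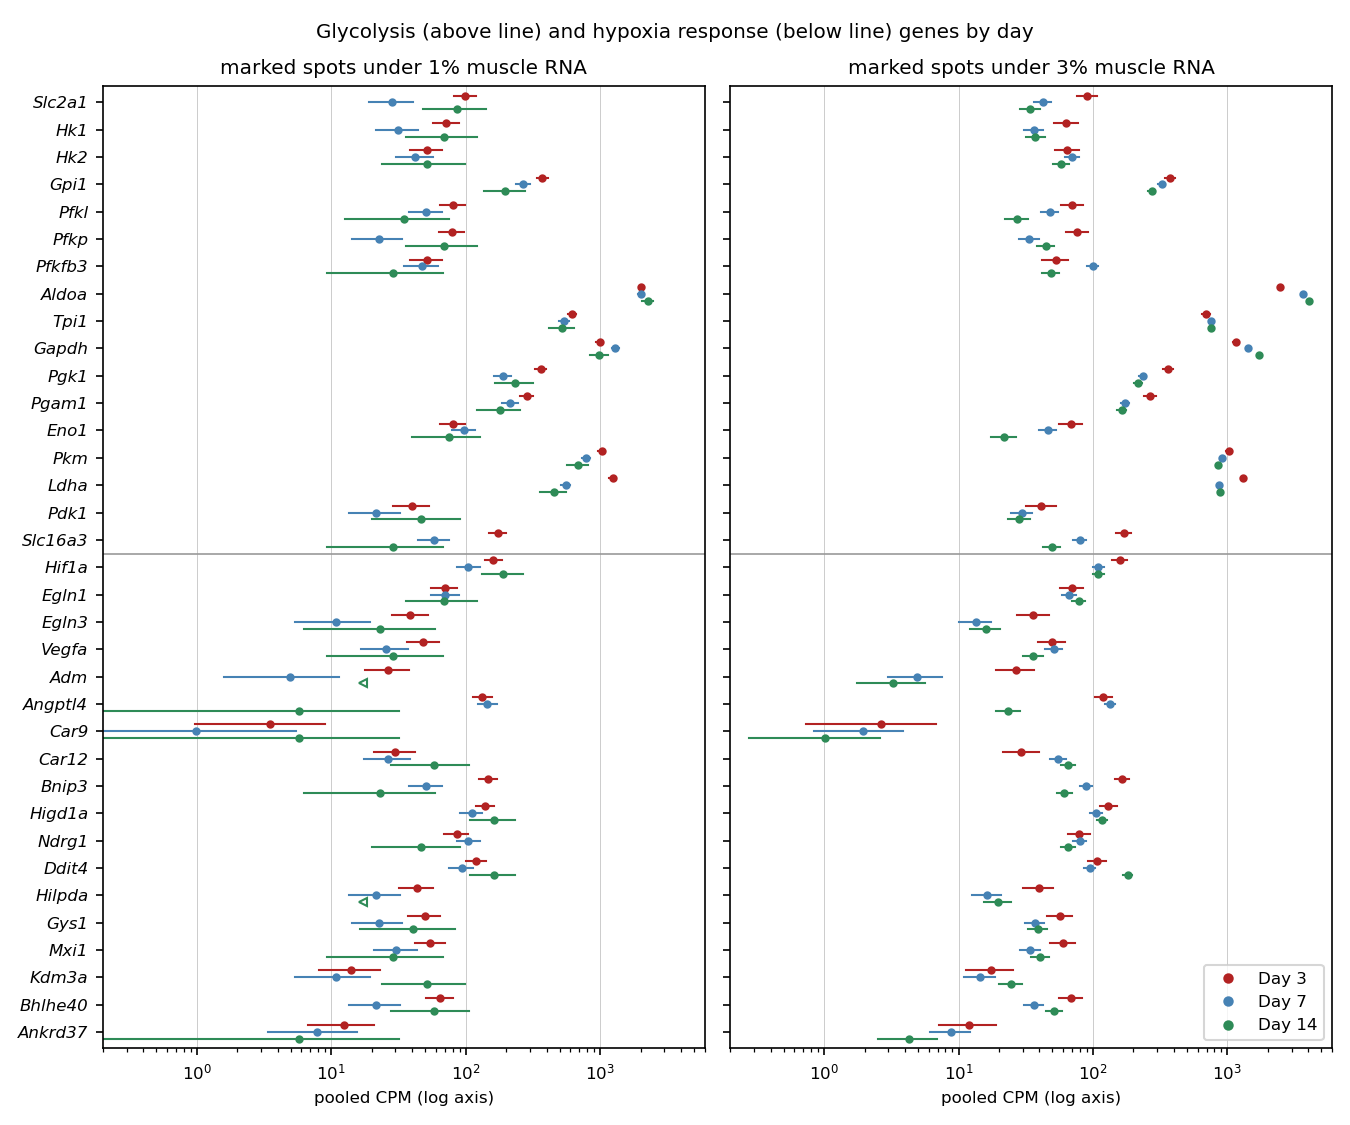
Pooled CPM (log axis) of each of the 35 members on Days 3, 7 and 14, with 95% counting intervals, in marked spots under 1% (left) and under 3% (right) muscle RNA; an open triangle marks 0 UMIs, drawn at the 3-count limit. Slc2a1, Ldha, Slc16a3 and Bnip3 are highest on Day 3 in both panels, and Aldoa lies between 2004 and 2254 CPM under 1% but goes from 2469 to 4072 CPM under 3%.

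The group that handles pyruvate and lactate had the lowest Day 7 over Day 3 ratio of the glycolysis groups, with 1449, 633 and 525 CPM on Days 3, 7 and 14. Ldha was at 1236, 553 and 450 CPM on Days 3, 7 and 14, and its Day 7 over Day 3 log2 ratio was -1.16 (-1.30 to -1.02). Slc16a3 was at 174, 57.8 and 28.8 CPM (Day 7 over Day 3 -1.59, -2.03 to -1.16). RNA of the glucose transporter Slc2a1 was at 99.6, 28.4 and 86.5 CPM (-1.81, -2.45 to -1.21 for Day 7 over Day 3). Hk1 was at 71.4, 31.3 and 69.2 CPM and Pfkp at 79.3, 22.5 and 69.2 CPM. The Day 14 values of these 3 genes rest on 15, 12 and 12 UMIs, all in the set with the most epidermal RNA. Pgk1 (360, 188 and 231 CPM) and Pfkl (80.2, 50.9 and 34.6 CPM) were also lower on Day 7 than on Day 3. The other lower steps differed less, and Gapdh was at 996, 1299 and 986 CPM, with Aldoa at 2027, 2004 and 2254 CPM.

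Among the hypoxia response members, Bnip3 was at 146, 50.9 and 23.1 CPM, 2.87-fold lower on Day 7 than on Day 3. Hif1a was at 160, 105 and 190 CPM, so its lowest pooled level was on Day 7 (Day 7 over Day 3 -0.61, -0.97 to -0.26). Angptl4 was at 133 CPM and 145 CPM on Days 3 and 7 and at 5.77 CPM, a single UMI, on Day 14. Under 1% none of the 18 had its lowest pooled level on Day 3, while under 3% Car12 did. Ddit4 was at 119, 93.0 and 161 CPM and Ndrg1 at 85.5, 105 and 46.1 CPM. Adm and Hilpda had 26.4 and 43.2 CPM on Day 3, 4.90 and 21.6 CPM on Day 7, then 0 UMIs on Day 14, which allows up to 17.3 CPM in a set of 173468 UMIs. Egln1 was nearly level at 69.6, 70.5 and 69.2 CPM, and Higd1a was at 140, 111 and 161 CPM.

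From Day 7 to Day 14, 14 members had enough UMIs under 1%. Hif1a (log2 ratio 0.86, 0.25 to 1.44) and Ddit4 (0.79, 0.13 to 1.42) were higher and Angptl4 (-4.65) and Ndrg1 (-1.18) lower, that is 2 and 2, beside 16.7% and 37.8% of all genes. From Day 3 to Day 14, 9 of 18 members were lower (Angptl4, Bnip3, Slc16a3, Ldha, Gpi1, Ndrg1, Pgam1, Pgk1 and Pkm) and 0 higher, beside 35.9% and 17% of all genes. The comparisons with Day 3 share that section, so its values enter both. The 16 spots of Day 14 also held hair follicle genes at 8572 CPM, which were nearly absent in the Day 3 and Day 7 sets. Under 3% muscle they were at 6777 CPM on Day 14. Their part in the Day 14 values was not tested.

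Under 3% muscle the order of days held for some members and not for others. Of 31 members with enough UMIs, 13 were lower and 2 higher on Day 7 than on Day 3, beside 17.1% and 17.2% of all genes. The 17 glycolysis members summed to 8362 CPM on Day 3 and 8802 CPM on Day 7 (log2 ratio 0.07), but the 16 without Aldoa to 5893 and 5173 CPM (-0.19, -0.22 to -0.15), so the direction of the sum turned on Aldoa (2469, 3629 and 4072 CPM on Days 3, 7 and 14). Slc2a1 was at 90.2, 42.2 and 34.1 CPM, Slc16a3 at 169, 80.0 and 49.2 CPM, Bnip3 at 165, 89.1 and 61.4 CPM, and Egln3 at 36.1, 13.5 and 15.9 CPM. These 4 members had their highest value on Day 3 under both limits. Hk1 was at 63.5, 36.3 and 37.4 CPM, Pfkp at 76.2, 33.6 and 44.4 CPM, Pgk1 at 364, 235 and 217 CPM, Pgam1 at 267, 173 and 164 CPM, and Ldha at 1314, 871 and 879 CPM. Hilpda was at 39.4, 16.2 and 19.7 CPM. Bhlhe40 was at 68.2, 36.3 and 51.5 CPM (Day 7 over Day 3 -0.91, -1.28 to -0.53), Mxi1 at 59.5, 34.1 and 40.7 CPM (-0.80, -1.20 to -0.40) and Gys1 at 56.8, 36.8 and 38.9 CPM (-0.63, -1.02 to -0.22). In these 9 members, too, the Day 3 level was the highest of the days. Pfkfb3 (52.8, 99.7 and 48.7 CPM) and Car12 (29.4, 55.0 and 65.4 CPM), a membrane carbonic anhydrase, were the 2 higher members on Day 7.

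From Day 7 to Day 14 under 3%, 2 of 32 members were higher and 5 lower, beside 24% and 14% of all genes. Ddit4 was at 94.3 CPM on Day 7 and 182 CPM on Day 14 (log2 ratio 0.95, 0.77 to 1.13) and Kdm3a at 14.5 and 24.5 CPM. Angptl4 was at 133 CPM and 23.5 CPM (-2.51, -2.84 to -2.19), and Eno1 (46.4 and 21.7 CPM), Pfkl (47.6 and 27.0 CPM), Pfkfb3 and Slc16a3 were the other lower members. From Day 3 to Day 14, 12 of 32 were lower and 3 higher (Aldoa, Car12 and Ddit4), beside 14.4% and 27.4% of all genes. The 12 lower ones were Slc2a1, Hk1, Pfkl, Pfkp, Pgk1, Pgam1, Eno1, Slc16a3, Egln3, Angptl4, Bnip3 and Hilpda. Hk2, Gpi1, Tpi1, Gapdh, Pkm, Pdk1, Hif1a, Egln1, Vegfa, Higd1a and Ndrg1 were within the fold in all 3 comparisons of days under 3%. Adm, Car9 and Ankrd37 had under 100 UMIs in each, and Ankrd37 and Car9 did not exceed 12.3 CPM in any set given here by day.

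Muscle was kept apart because it carries its own glycolytic profile. On Day 3, spots in which Acta1 plus Ckm made up 5% or more of UMIs had 13190 CPM of Aldoa against 2027 CPM in spots under 1% (log2 ratio 2.70, 2.61 to 2.79), and 7975 CPM of Gapdh against 996 CPM (3.00, 2.88 to 3.12). Ldha (1.60), Tpi1 (1.59), Hk2 (2.05), Gys1 (1.52) and Pkm (1.16) were also higher in muscle spots. So were Egln1 (1.29), Pgk1 (0.84), Bnip3 (0.76) and Gpi1 (0.51). Slc2a1, by contrast, had 7.07 CPM (1 UMI) against 99.6 CPM, Pgam1 had 56.6 CPM against 285 CPM (-2.33, -3.56 to -1.34), and Pfkl 21.2 CPM against 80.2 CPM. Muscle uses Slc2a4, Pgam2 and Pfkm for these functions. Of the members high in muscle, Gapdh, Ldha, Tpi1, Pkm, Pgk1 and Gpi1 were called higher in the Day 3 bed under 1%. Aldoa and Bnip3 were not, while Hk2, Gys1 and Egln1 had under 100 UMIs. Under 3%, Gapdh, Ldha and Gpi1 stayed under the fold, as given above. Of the members named as low in muscle, Slc2a1 and Pgam1 were called higher in the Day 3 bed under 1%, and Pfkl had under 100 UMIs. The bed held less muscle RNA than the other spots, and the part of muscle in these differences was not tested.

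Other genes of the pathway were read from lists of isoforms, sensing components, further HIF targets and mitochondrial respiration. Of 12 further targets, 7 had enough UMIs in the Day 3 bed contrast under 1%, and 6 were higher and 0 lower, in the contrast where 20.6% and 23.1% of all genes were. Haem oxygenase Hmox1 was at 1522 CPM against 144 CPM (log2 ratio 3.41, 3.11 to 3.71) and the collagen prolyl hydroxylase subunit P4ha2 at 489 against 114 CPM (2.10, 1.69 to 2.50). P4ha1 (1.57), Ndufa4l2 (1.40) and Lox (0.59) were also higher. The bed itself was chosen by matrix and repair genes, and the targets include collagen enzymes such as P4ha2, so this count is not independent of that choice. As with the members, genes scarce outside the bed reach the UMI minimum partly through their wound-bed level. Of 16 isoform genes, 5 had enough UMIs, 0 were higher and 2 were lower, Ldhb at 55.8 against 255 CPM (-2.19) and the muscle enolase Eno3 (-0.80). Of 10 respiration genes, 8 had enough UMIs, 0 were higher and 3 were lower (Cs, Ogdh and Uqcrc1). The hydroxylase Egln2, at 55.8 against 151 CPM (-1.44), was the 1 sensing gene of 2 with enough UMIs past the fold. Between days, the transporter Slc2a3, which neutrophils use, was at 169, 4.90 and 0 CPM on Days 3, 7 and 14, while 0 of 10 respiration genes passed the fold between Day 3 and Day 7, beside the 24.7% lower and 16.6% higher of all genes.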

How the data were processed

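RNA was measured with Visium in 1 wound section per day (Days 3, 7 and 14). The deposited tables hold raw UMI counts per gene and spot; per the labels the authors made them with Space Ranger 1.3.0 on the mouse genome mm10, and their spot tables say which spots lie under tissue. Spots were grouped by the day in the sample labels. From the counts, CPM were pooled over sets of spots (Python 3.11.15, numpy 2.4.6, scipy 1.17.1), with exact Poisson 95% intervals for CPM and exact conditional binomial 95% intervals for ratios. These cover counting error only, and with 1 section per day no p-value is given. Total depth was 1772259 to 4611723 UMIs per section in marked spots. Aldoa is listed under 2 identifiers, the second with 0 UMIs in marked spots.

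All 35 members and 44 further pathway genes were listed by symbol; those described with values are mainly the members past the 1.5-fold limit, the highest and lowest ratios, and those needed for their role group. Members, lists and comparisons were chosen with earlier results of these data known. The 3% muscle limit, the sets without blood cell spots or epidermal spots under 3%, and the set between 1% and 3% were chosen after the data were seen. Wound-bed spots were the top 20%, and marker-rich spots the top 10%, of spots by the share of UMIs in a list, summed over a spot and its neighbours; rich sets overlap and are ranges, not cell types. Alternatives included TMM factors (edgeR 4.0.16) and DESeq2 1.42.0 size factors (R 4.3.3) for scaling only. The ratio and wound-bed code was tested on simulated counts. Motifs were read from RefSeq windows of GRCm38.p6. The values of 1 further pathway gene are not reported here.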

Additional observations from a re-analysis of the deposited data

Results flagged for a closer look

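In 3 cases a member was past the fold in opposite directions in the wound beds of different days, with both intervals clear of 0; the difference between days was not tested. Under 1% muscle, Angptl4 had a wound-bed log2 ratio of 1.42 on Day 3 and -0.77 on Day 7. Under 3% muscle, Tpi1 had 0.73 on Day 3 and -0.62 on Day 7, and Egln1 had 0.71 on Day 3 and -0.65 on Day 14. The Angptl4 value on Day 7 rests on 25 wound-bed UMIs and was 0.05 under 3% muscle. Slc2a1 under 3% was also past the fold in both directions, with 1.34 on Day 3 and -0.73 on Day 14, but its Day 14 interval (-1.72 to 0.13) held 0.

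The members were also detected in spots that were not marked as tissue, which no comparison above uses. In unmarked spots with at least 500 UMIs and under 1% muscle RNA (93, 47 and 34 spots on Days 3, 7 and 14), the 17 glycolysis members summed to 8560, 9694 and 6429 CPM and the 18 hypoxia response members to 1491, 1346 and 1212 CPM. Fat genes in these spots summed to 35490, 54030 and 17960 CPM, against 5797, 3661 and 674 CPM in marked spots under the same limit, and neutrophil genes to 7362, 93.8 and 1330 CPM. The part of these cells in the members' levels was not tested. The wound-bed list summed to 2456, 1553 and 9897 CPM in these unmarked spots, against 2738, 13070 and 1118 CPM in marked spots under the same limit. The Day 14 wound-bed comparisons thus leave out unmarked spots richer in that list.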

How the results depend on the processing

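Of 128 alternative counts of members past the fold, 88 stayed within 1.5 times of the value given in the report and 40 moved. Of 414 alternative ratios of single members, 352 stayed inside their counting interval, 59 moved and 3 changed sign. The count higher in the Day 3 bed was 21, with 2 lower, when no UMI minimum was set, and its other alternatives under 1% stayed within 1.5 times. Without a minimum the Day 7 bed had 4 higher and 5 lower, and the Day 14 bed 10 and 1. Day 7 over Day 3 then had 19 lower, Day 14 over Day 7 had 12 higher and 5 lower, and Day 14 over Day 3 had 3 and 15. That setting also took in genes with few UMIs, 11990 instead of 1597 genes in the Day 7 bed. In the Day 14 bed it moved the median log2 ratio of all genes from -0.39 to 0.58. No share of all genes is given for these counts without a minimum, so they are not a result about the members. Counts lower in the Day 7 bed were 0 with the top 30% of spots or with list genes weighted alike, and 2 with the largest connected group or without blood cell spots. Counts higher in the Day 14 bed were 0 with the top 30%, TMM or without blood cell spots. With all marked spots, 2 members were higher in each comparison with Day 3, 4 were lower for Day 14 over Day 7, and Hif1a turned to -0.063 there. With the mean of spot CPM, 1 member was higher for each comparison with Day 3. For Day 14 over Day 7, TMM gave 1 higher and 5 lower and size factors 4 lower; TMM moved the median log2 ratio of all genes from -0.25 to -0.50 there and from -0.39 to -1.07 in the Day 14 bed. Under 3% muscle, 2 (Day 7) and 3 (Day 14) members were higher than on Day 3, 5 were lower for Day 14 over Day 7, the Day 7 bed had 2 higher and 8 lower, and the Day 14 bed 4 lower. Angptl4 in the Day 7 bed turned to 0.054 and Aldoa in the Day 14 bed to -0.10. Within the 3% sets, leaving epidermal spots out of the rest gave 9 higher on Day 3 and 0 higher and 2 lower on Day 14. Spots between 1% and 3% gave 2 higher on Day 3, 0 lower on Day 7 and 0 higher on Day 14, and leaving out blood cell spots gave 3 higher and 2 lower on Day 14. Apart from settings that use fewer spots or UMIs by construction, the cause was not tested. A 0.2% muscle limit gave no value, since it left 45 spots with 25138 UMIs on Day 3 and 1 spot on each later day. No paired analysis was possible because each day had 1 section. Depth limits the Day 14 values under 1% most, and single replicates cannot be left out.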
